A study of Mus musculus with 16 samples.

Results

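The data compared the response of the left ventricle to pressure overload between mice lacking the transcription factor TFEB in cardiomyocytes and control mice. For each gene, the change between transverse aortic constriction (TAC) and sham surgery in the knockout was set against the same change in controls. The difference of these 2 log2 changes is called the interaction here, and it is positive where the TAC level of the knockout lay above the sum of both effects. The comparison used all 16 of the 16 libraries of the series, 4 in each of 4 groups, and all genes that passed a filter on low counts. The groups were controls labelled WT after sham surgery, WT after TAC, knockouts labelled cKO-TFEB (cKO below) after sham surgery, and cKO after TAC. All mice were of strain C57/BL6N, and the samples are described as biological replicates. The line that drives the cardiomyocyte-specific deletion, the alleles that controls carry, the age, the sex and the time after surgery are not given in the sources used here. RNA came from whole left ventricular tissue, so fewer cells of a type and less RNA per cell cannot be told apart in any value below.

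TFEB is a basic helix-loop-helix leucine zipper factor that, when dephosphorylated, enters the nucleus and switches on genes of lysosomes and autophagy, and it is also known as a regulator of lipid and mitochondrial metabolism. TAC narrows the aorta and forces the left ventricle to pump against a higher pressure. The overloaded ventricle is known to hypertrophy, to re-express fetal genes such as Nppb and Myh7, to lower genes of fatty acid oxidation and to lay down extracellular matrix made by activated fibroblasts. If knockout and overload acted independently on a log2 scale, the interaction of each gene would be 0.

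TFEB binds the E-box CACGTG, most strongly inside the longer element GTCACGTG, which is known from lysosomal promoters. These letters were searched on both strands in RefSeq promoters (assembly GRCm38.p6, 250 bases before to 50 bases after each start site). A match to GTCACGTG or TCACGTGA is always also a match to CACGTG. Among the 27025 RefSeq genes with a promoter, 8.09% held CACGTG, 2.55% GTCACGTG and 1.12% TCACGTGA. Of 57 tested lysosomal hydrolases and membrane proteins 46 matched a promoter, and 15 of these (32.6%) held CACGTG, 12 (26.1%) GTCACGTG and 6 (13.0%) TCACGTGA. The 50 genes named individually follow the rule given with the methods, except Cnksr1, which was added after its values were seen. Of these 50 genes, 39 matched a promoter and 3 held CACGTG, all before the start site. All 3 are shown, and 3 of 39 is close to the 8.09% of all RefSeq genes with a promoter. They are a monocarboxylate transporter, a lysosomal hydrolase and Cnksr1, which was among the genes with the smallest interaction p. The match is in capitals and the strand is that of the gene.
Slc16a1 (chr3:104638435-104638496, + strand): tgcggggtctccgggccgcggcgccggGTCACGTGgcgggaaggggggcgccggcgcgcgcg
Sgsh (chr11:119355511-119355566, - strand): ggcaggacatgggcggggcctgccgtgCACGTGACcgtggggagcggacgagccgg
Cnksr1 (chr4:134238403-134238462, - strand): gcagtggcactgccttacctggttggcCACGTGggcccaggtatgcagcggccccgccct
In Slc16a1 and Sgsh the capitals are the longer element or its reverse complement, and in Cnksr1 they are the E-box alone. A match describes the letters and shows no binding.

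Library totals ranged from 12946878 to 16347388 counts assigned to genes, and the spread between replicates of a typical gene was 16.5% (biological coefficient of variation). Within each surgery, no cKO library reached the lowest WT library for Tfeb. It stood at 30.9, 37.4, 40.1 and 37.6 CPM (counts scaled to a common library size) in WT sham, at 10.0, 9.12, 9.68 and 13.0 in cKO sham, at 40.0, 34.6, 20.6 and 21.1 in WT TAC, and at 14.7, 13.8, 13.0 and 9.37 in cKO TAC. The cKO mean was 28.7% of the WT mean after sham surgery and 43.8% after TAC, each with an exact two-sided permutation p of 0.0286, the smallest that 70 relabelings allow. In edgeR's fit across all genes the log2 difference of cKO from WT was -1.80 after sham surgery (adjusted p = 0.000604) and -1.19 after TAC (adjusted p = 0.0138), and the call after TAC was lost without WT TAC replicate 2 (-1.11, adjusted p = 0.0645). Its interaction was 0.61 ± 0.28 (log2, SE), with an unadjusted p of 0.044 and an adjusted p of 0.946. Atrial transcripts (Myl7, Sln and Myl4 summed) were uneven among controls, at 2384 CPM in WT sham replicate 3 and 836 CPM in WT TAC replicate 4. WT sham replicates 2 and 4 held 229 and 121 CPM, and the remaining WT libraries at most 17.7 CPM. No cKO library held more than 21.9 CPM. The fit without the 2 richest WT libraries, given below, keeps WT sham replicates 2 and 4. Of the defining markers of other cell types, Ly6g and Ucp1 were at 0 in every library, and 5 of 20 lymphocyte and neutrophil markers passed the filter.

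No gene passed the threshold for the interaction. Of 15206 genes tested, 0 (0%) had an adjusted p under 0.05 in edgeR's quasi-likelihood test with Benjamini-Hochberg adjustment, and the smallest adjusted p was 0.801. At an unadjusted p under 0.05 there were 715 genes (4.7%), 350 with a positive (2.3%) and 365 with a negative estimate (2.4%). The same contrast gave 3 genes in DESeq2's Wald test, Cnksr1 and Socs3 among them, and 0 in limma voom, with 766 and 740 genes at an unadjusted p under 0.05. Without the 2 WT libraries richest in atrial transcripts, the quasi-likelihood test called 2 genes, among them Cnksr1 (-1.41, adjusted p = 0.0265). In the same fit, TAC changed 2409 genes in WT (15.8%) and 4034 in cKO (26.5%), and the knockout changed 178 genes after sham surgery (1.17%) and 271 after TAC (1.78%). These counts moved with single libraries. For TAC in WT they ranged from 1234 (without WT TAC replicate 1) to 2477 (without cKO TAC replicate 1). For TAC in cKO they ranged from 2720 (without cKO TAC replicate 1) to 4633 (without WT sham replicate 1). Without cKO TAC replicate 1 the counts were thus 2477 in WT and 2720 in cKO. The knockout count after sham surgery lay between 59 (without cKO sham replicate 4) and 222 (without WT TAC replicate 1). After TAC it lay between 13 (without WT TAC replicate 2) and 912 (without cKO TAC replicate 3). A larger count in cKO does not show a larger response, because the difference itself was the quantity tested and no gene passed.

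The precision of each estimate sets what a missing call means. An interaction combines 4 group means, and its median SE was 0.22 (log2), against 0.16 for the TAC effect in either genotype. For 10798 genes (71.0%) the 95% interval lay inside a 2-fold difference of the responses in either direction, and for 6439 genes (42.3%) it lay inside 1.5-fold. The median absolute estimate was 0.17. Estimates over 1 in size occurred in 431 genes, of which 175 had an unadjusted p under 0.05. For the remaining genes the interval reached a 2-fold difference or more in at least 1 direction.

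**Figure D1:**
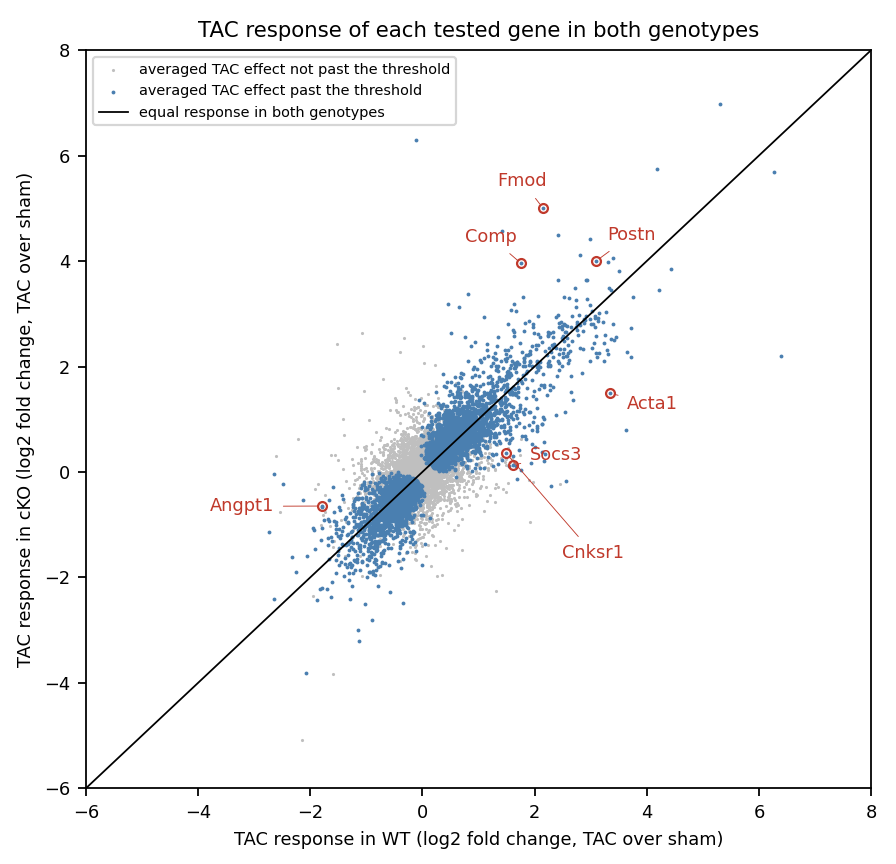
Change between TAC and sham surgery in WT (horizontal axis, log2 fold change) and cKO (vertical axis, log2 fold change) for each of 15206 genes. Blue points are the 5903 genes whose TAC effect averaged over both genotypes passed the threshold, the line marks equal responses, and red rings mark genes described in the text. Most points follow the line, and Socs3 and Cnksr1 lie below it near a cKO response of 0.

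Socs3 and Cnksr1 were among the genes with the smallest interaction p, with Cnksr1 singled out after its values were seen. In both of them the cKO level after sham surgery already lay above WT sham, and TAC raised the gene in WT but not past the threshold in cKO. Libraries of the compared groups failed to overlap in 19.5% of all genes for TAC in WT, in 7.59% for genotype after sham surgery and in 10% for genotype after TAC. Socs3 encodes a suppressor of cytokine signalling that is induced through gp130 and STAT3. It stood at 7.11, 7.32, 5.39 and 5.49 CPM in WT sham and at 12.1, 21.9, 18.3 and 25.0 CPM in WT TAC. The cKO values were 8.28, 17.6, 11.4 and 12.2 CPM after sham surgery and 12.3, 15.0, 13.9 and 12.8 CPM after TAC. The cKO sham libraries lay above all WT sham libraries, and the cKO TAC libraries fell within the range of WT TAC. TAC raised Socs3 by 1.61 in WT (adjusted p = 0.00017), the cKO estimate was 0.13 (adjusted p = 0.709), and the interaction was -1.48 ± 0.31 with an adjusted p of 0.801. Cnksr1, which encodes a scaffold protein of Ras signalling, stood at 8.11, 9.70, 13.3 and 7.66 CPM in WT sham and at 34.9, 23.9, 28.3 and 21.8 CPM in WT TAC. The cKO libraries held 24.3, 21.0, 20.1 and 24.7 CPM after sham surgery and 26.5, 34.3, 25.0 and 30.1 CPM after TAC. Here too every cKO sham library lay above every WT sham library, and cKO TAC stood at 29.0 ± 4.1 CPM where the sum of log2 effects gave 63.3 and the sum of CPM differences gave 40.1. Its cKO TAC libraries all lay above its cKO sham libraries. The Cnksr1 interaction was -1.13 ± 0.24 (adjusted p = 0.801). Both genes were called higher in cKO after sham surgery, with adjusted p-values of 0.0429 for Socs3 and 0.0015 for Cnksr1. This contrast shares the sham libraries with the interaction, so it is not independent of it.

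Bcl2 and Angpt1 also had cKO sham levels apart from WT sham on the side to which TAC moved WT. Bcl2, which encodes an inhibitor of mitochondrial apoptosis, rose with TAC in WT by 0.80 (adjusted p = 0.00149) and was higher in cKO after sham surgery by 0.92 (adjusted p = 0.00366). Its means were 7.09 CPM in WT sham, 13.4 in cKO sham, 12.3 in WT TAC and 16.2 in cKO TAC, with every cKO TAC library above every WT TAC library, and its interaction was -0.52 ± 0.20 (adjusted p = 0.946). Angpt1, which encodes the ligand of the endothelial receptor Tie2, was lower in place of higher. It stood at 46.6, 50.2, 78.7 and 38.5 CPM in WT sham, at 10.8, 20.1, 19.8 and 11.7 CPM in cKO sham, at 8.17, 14.7, 17.4 and 21.8 CPM in WT TAC, and at 10.5, 5.94, 12.6 and 10.8 CPM in cKO TAC. All WT sham libraries lay above all others, and the remaining 3 groups overlapped. TAC lowered Angpt1 by 1.78 in WT (adjusted p = 0.00208), the cKO estimate was -0.65 (adjusted p = 0.163), and the interaction was 1.14 ± 0.45 (adjusted p = 0.946).

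**Figure D2:**
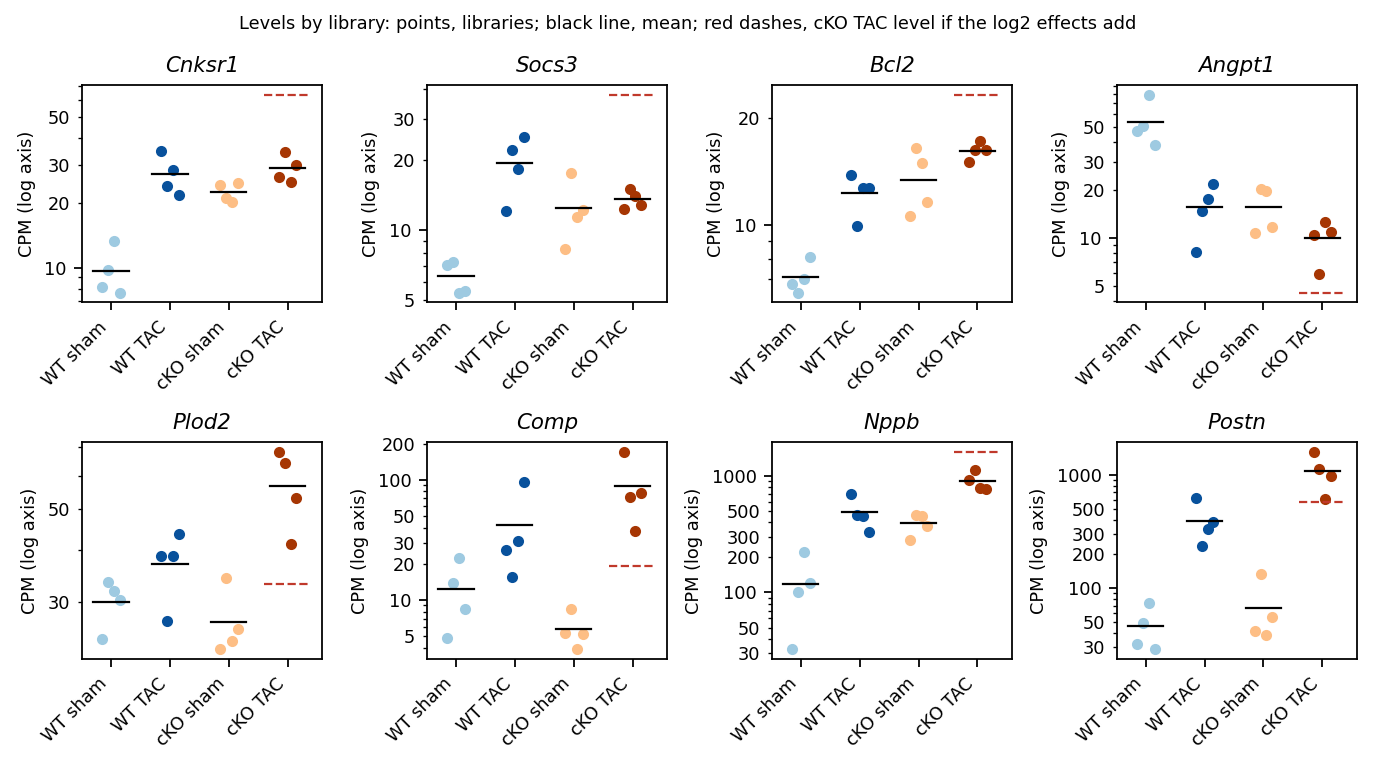
CPM on a log axis in each of the 16 libraries for 8 genes, by group, with a black line at the group mean and a red dashed line at the cKO TAC level that the sum of both log2 effects would give. In Socs3 and Cnksr1 the cKO TAC libraries lie below the dashed line, and in Angpt1, Plod2 and Comp above it.

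Genes of the integrated stress response with one-carbon metabolism, a program started by ATF4 that supplies serine, glycine and asparagine, also had high cKO sham levels. Of 31 tested members, 7 were higher in cKO after sham surgery, against 0.618% of all genes, among them Mthfd2 (2.69), Asns (2.17) and Phgdh (2.16), which encode enzymes of mitochondrial folate, asparagine and serine metabolism. TAC raised 7 members in WT, against 9.7% of all genes, including Gdf15 (2.14), Phgdh (1.35) and Slc7a5 (1.05). In cKO TAC raised 2 (Nupr1 and Pycr1), against 14.2% of all genes, and lowered 7, including Cth (-1.80) and Chac1 (-0.94), against 12.4%. The interaction was negative in 23 of 31 members with a median of -0.24, against 7520 of 15206 genes and a median of 0.00 over all genes, and 0 members passed. The estimates of Gdf15 (-1.23), Phgdh (-1.20), Psat1 (-1.20) and Mthfd2 (-1.15) were among the most negative of the list, and that of Stc2, a secreted glycoprotein induced by stress, was 0.70 ± 0.25 (adjusted p = 0.946).

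More genes of energy metabolism were called lower with TAC in cKO than in WT, while none of their interactions passed. In complex I, which passes electrons from NADH into the respiratory chain, TAC lowered 3 of 36 nuclear-encoded subunits in WT, against 6.14% of all genes, and 33 in cKO, against 12.4%. The median response was -0.34 in WT and -0.60 in cKO. The interaction was negative in 34 of 36 subunits, the exceptions being Ndufa12 and Ndufb2, with a median of -0.27, and 2 had an unadjusted p under 0.05 (5.56%, against 4.7% of all genes). Of the nuclear subunits of complexes II to V, TAC lowered 7 of 39 in WT and 38 in cKO, against the same shares of all genes, and all 39 had a negative interaction with a median of -0.27. For 35 of the 36 and 36 of the 39 the 95% interval lay inside 2-fold. Called in cKO alone were 30 complex I subunits and 31 of complexes II to V, and in WT alone 0, against 2240 and 615 of all 15206 genes, and a call in 1 genotype alone does not test the difference between genotypes. The median SE of the interaction in these lists was 0.19 and 0.20. Over all genes, 7520 of 15206 interactions were negative. Members of a list are correlated and come from the same 16 libraries, so sign counts here and below are not replicates. Per library, the mean level of complexes II to V relative to WT sham was -0.34 ± 0.15 (log2, SD, n = 4) in WT TAC. It was -0.20 ± 0.13 in cKO sham and -0.82 ± 0.26 in cKO TAC, with an SD of 0.21 in WT sham.

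Ndufc2, a membrane-arm subunit of complex I, had the smallest p of that list. It stood at 125.3, 132.1, 121.3 and 118.2 CPM in WT sham and at 103.4, 119.0, 123.0 and 95.4 CPM in WT TAC. The cKO libraries held 116.6, 107.8, 129.1 and 114.5 CPM after sham surgery and 77.5, 74.0, 96.8 and 74.5 CPM after TAC. The WT groups overlapped and the cKO groups did not, as in 29.3% of all genes for TAC in cKO. Its interaction was -0.36 ± 0.14 (adjusted p = 0.946). Sdhd, a membrane anchor of complex II, gave -0.34 ± 0.15 (adjusted p = 0.946).

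The other mitochondrial lists leaned the same way. Mitochondrial ribosomal proteins translate the mitochondrially encoded subunits. They fell in 2 of 74 cases in WT (6.14% of all genes) and in 51 in cKO (12.4% of all genes). Their interaction was negative in 67, with a median of -0.21. An unadjusted p under 0.05 was seen in 7 members (9.46%, against 4.7% of all genes). Mrpl21, of the large mitochondrial subunit, had an interaction of -0.49 ± 0.16 (adjusted p = 0.946). Of 13 mitochondrially encoded subunits, 1 fell in WT and 8 in cKO, against the same 6.14% and 12.4%, with a median interaction of -0.22 (mt-Cytb, of complex III, -0.25 ± 0.19, adjusted p = 0.956), and for 8 of 13 the interval lay inside 2-fold. The share of all counts from the mitochondrial genome was 23.5% ± 2.1 (SD, n = 4) in WT after sham surgery and 19.8% ± 2.2 after TAC, and in cKO 22.6% ± 1.0 and 17.3% ± 2.1.

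Fatty acid uptake and oxidation, the main fuel supply of the healthy heart, fell in both genotypes. TAC lowered 24 of 34 members in WT and 29 in cKO, against 6.14% and 12.4% of all genes, with medians of -0.44 and -0.77. The interaction was negative in 32 members, with a median of -0.29. At an unadjusted p under 0.05 there were 2 members (5.88%, against 4.7% of all genes). The genotype difference after TAC passed for 15 members, all lower in cKO against 1.18% of all genes, and after sham surgery for 0, in the contrasts whose counts moved most with single libraries. Eci1, an isomerase of unsaturated fatty acid oxidation, stood at 272.3, 275.4, 266.5 and 284.6 CPM in WT sham and at 149.8, 233.1, 226.1 and 196.8 CPM in WT TAC. Its cKO levels were 211.0, 196.1, 275.0 and 222.8 CPM after sham surgery and 82.8, 110.5, 150.0 and 117.6 CPM after TAC. The cKO TAC libraries were the lowest, with replicate 3 level with the lowest WT TAC library. The Eci1 interaction was -0.53 ± 0.22 (adjusted p = 0.946). The estimated cKO level after TAC relative to sham was 0.69 times the WT value (unadjusted 95% interval 0.50 to 0.96). Eci1 was named for the smallest interaction p of the 34 members, so this interval does not show a difference.

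In the citric acid cycle and pyruvate metabolism list, TAC lowered 8 of 27 members in WT and 24 in cKO, against 6.14% and 12.4% of all genes, and 24 interactions were negative with a median of -0.24. Pdhb, a subunit of pyruvate dehydrogenase, stood at 592.4 to 672.1 CPM in WT sham, 503.3 to 611.4 in cKO sham, 513.0 to 623.2 in WT TAC and 331.5 to 476.7 in cKO TAC. Only its cKO TAC libraries lay apart from the other groups, and its interaction was -0.41 ± 0.15 (adjusted p = 0.946). Of 23 genes of branched-chain amino acid and ketone breakdown, 15 fell in WT and 22 in cKO, against the same shares, with a median interaction of -0.18. In that list Slc16a1, the monocarboxylate transporter whose promoter window is shown above, had WT means of 236.3 CPM after sham surgery and 256.0 after TAC, and cKO means of 318.9 and 260.9. It was higher in cKO after sham surgery (0.43, adjusted p = 0.0371), fell with TAC in cKO (-0.29, adjusted p = 0.0375), and had an interaction of -0.41 ± 0.14 (adjusted p = 0.946). Glucose uptake and glycolysis had a smaller median of -0.12, in which Slc2a4, the insulin-responsive glucose transporter, gave -0.47 ± 0.21 (adjusted p = 0.946). The PGC-1, ERR and PPAR regulators, which drive mitochondrial genes, had a median of -0.12, and Lpin1, a phosphatidate phosphatase that coactivates PGC-1alpha, gave -0.42 ± 0.16 (adjusted p = 0.946).

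Markers of cardiomyocytes moved alongside these lists. Their summed level was 118040 to 132580 CPM in WT sham, 114820 to 132480 in cKO sham, 105290 to 118640 in WT TAC and 82351 to 108460 in cKO TAC, and 22 of 24 marker interactions were negative with a median of -0.21. The part of this shift in the metabolic lists was not tested.

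**Figure D3:**
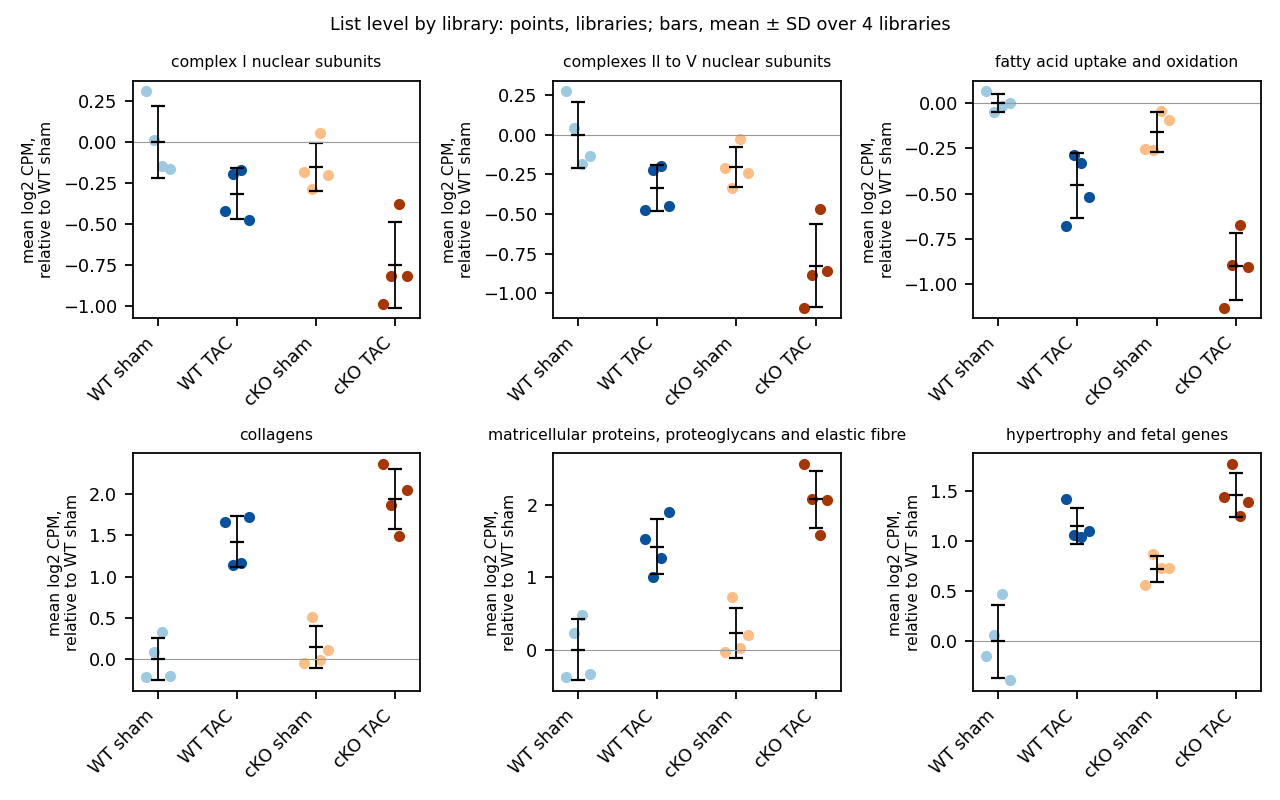
Mean log2 CPM over the tested members of 6 gene lists in each library, relative to the WT sham mean, with the group mean and SD over 4 libraries. By group mean the 3 metabolic lists are lowest in cKO TAC, with replicate 3 the highest library of that group. The matrix lists have their highest group mean in cKO TAC. In each of these lists the libraries of WT TAC and cKO TAC overlap.

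Extracellular matrix genes leaned in the opposite sense, with positive interactions and again no call. TAC raised 22 of 26 collagens in WT, against 9.7% of all genes, and 24 in cKO, against 14.2%. The medians over members were close, at 1.475 and 1.496, while 21 of 26 interactions were positive with a median of 0.31. The fibrillar genes Col1a1 (2.03 in WT and 2.41 in cKO) and Col3a1 (1.91 and 2.23) rose in both genotypes. Col27a1, a minor fibrillar collagen, had an interaction of 0.73 ± 0.28 (adjusted p = 0.946). Col11a1 (-0.76) and Col18a1 (-0.54) had negative estimates. Of the 26 collagens, 3 with a positive and 1 with a negative estimate had an unadjusted p under 0.05 (15.4%, against 4.7% of all genes).

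Matricellular proteins, proteoglycans and elastic fibre genes rose in 22 of 35 cases in WT and in 27 in cKO, against 9.7% and 14.2% of all genes, with medians of 1.34 and 1.83 and 28 positive interactions (median 0.29). Postn, which encodes periostin of activated fibroblasts, stood at 32.3, 49.6, 73.5 and 28.8 CPM in WT sham and at 617.2, 235.5, 329.3 and 384.1 CPM in WT TAC. After sham surgery cKO held 41.6, 132.9, 38.6 and 55.6 CPM, and after TAC 1587, 1118, 610.3 and 968.0 CPM. TAC groups lay above sham groups in both genotypes, and the lowest cKO TAC library lay just below the highest WT TAC library. The Postn interaction was 0.91 ± 0.64 (adjusted p = 0.956), with a 95% interval of -0.48 to 2.29. Comp, a pentameric matrix protein, and Fmod, a proteoglycan that binds collagen, had interactions of 2.20 ± 0.91 and 2.87 ± 1.11 (adjusted p = 0.946 each). Fmod stood at 1.45, 15.0, 8.94 and 5.41 CPM in WT sham and at 1.24, 1.49, 0.82 and 1.11 CPM in cKO sham. WT TAC ranged from 9.70 to 83.3 CPM, and cKO TAC, at 57.2, 24.3, 22.6 and 48.55 CPM, lay within that range. The genotype difference in Fmod was -2.71 after sham surgery (adjusted p = 0.171) and 0.16 after TAC (adjusted p = 0.936). The highest WT TAC values of Fmod and of Comp (95.7 CPM) were both in replicate 4, a library rich in atrial transcripts. Tnc, a glycoprotein of injured tissue, had an estimate of -1.53 in the same list.

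Collagen crosslinking and matrix protease genes rose in 18 of 33 cases in each genotype, against 9.7% of all genes in WT and 14.2% in cKO, with a median interaction of 0.17. Plod2, which hydroxylates collagen lysines for crosslinks, stood at 24.6, 33.6, 31.9 and 30.4 CPM in WT sham and at 38.6, 27.1, 38.7 and 43.7 CPM in WT TAC. In cKO it stood at 23.2, 34.4, 24.3 and 26.0 CPM after sham surgery and at 68.3, 64.2, 41.2 and 53.1 CPM after TAC. The 2 WT groups overlapped and the cKO TAC libraries lay above cKO sham, with an interaction of 0.77 ± 0.24 (adjusted p = 0.946). In the TGF-beta signalling list, the main profibrotic pathway, 10 of 30 members rose in WT and 19 in cKO, against the same shares of all genes, with a median interaction of 0.14. Its signal transducer Smad3 gave 0.62 ± 0.22 (adjusted p = 0.946) and was lower in cKO after sham surgery (-0.70, adjusted p = 0.0312).

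Activated fibroblast markers moved in the same direction as these lists. They include Postn and share Tnc with the matricellular list, so they are not independent of the matrix values. Their sum was 276 to 429 CPM in WT sham, 379 to 653 in cKO sham, 922 to 1604 in WT TAC and 1682 to 4011 in cKO TAC. Postn alone held 1587 CPM of the highest sum, in cKO TAC replicate 1. Of the 19 markers, TAC raised 13 in WT and 16 in cKO, against 9.7% and 14.2% of all genes. The interaction was positive in 14, with a median of 0.41. Resident fibroblast markers summed to 1649 to 2909 CPM over all groups, and their median interaction was -0.02 (Pdgfra, the PDGF receptor alpha, 0.38 ± 0.18, adjusted p = 0.946). Every tested marker of both lists had counts, and the part of fibroblast number in the matrix values was not tested.

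**Figure D4:**
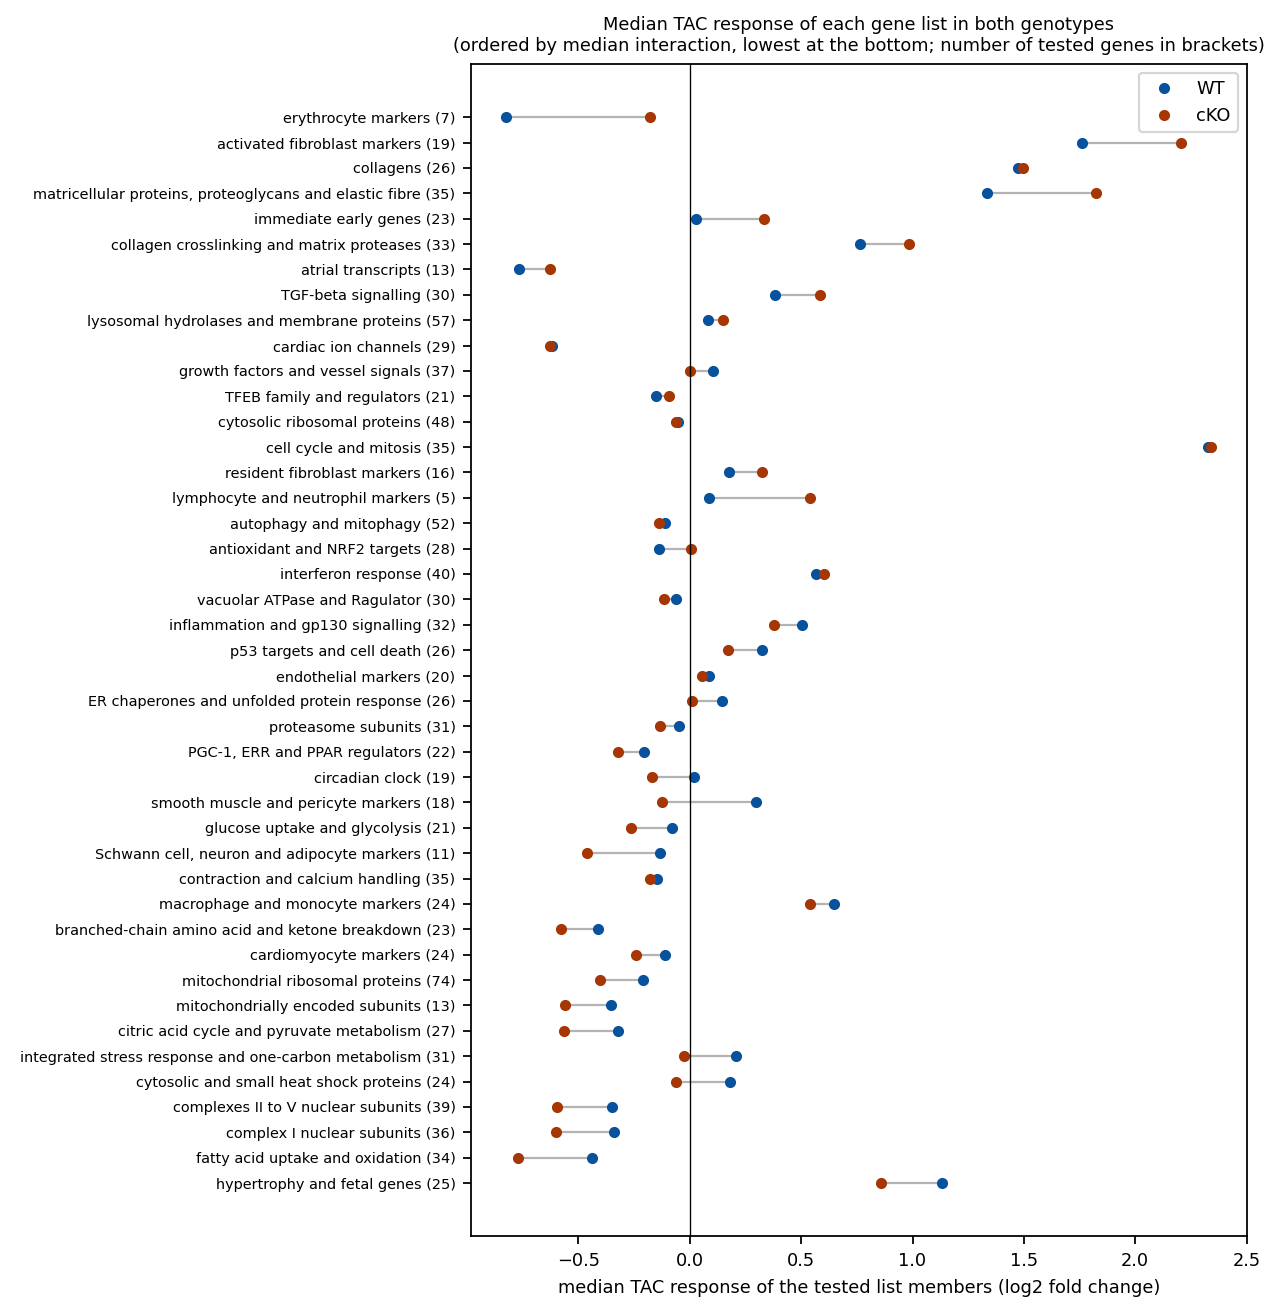
Median TAC response (log2 fold change) of the tested members of each of 43 gene lists in WT (blue) and cKO (brown), ordered by median interaction. Metabolic lists lie to the left of 0 with cKO further out, and matrix and activated fibroblast lists lie to the right with cKO at or beyond WT.

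Hypertrophy and fetal genes had a negative median interaction of -0.31. TAC raised 16 of 25 in WT, against 9.7% of all genes, while in cKO it raised 12, against 14.2%, and lowered Tnnt1, and 20 interactions were negative. Nppb, which encodes B-type natriuretic peptide, stood at 32.4, 101.1, 223.0 and 119.8 CPM in WT sham and at 707.2, 459.2, 457.5 and 328.7 CPM in WT TAC. In cKO it stood at 284.4, 462.2, 449.7 and 373.3 CPM after sham surgery and at 927.1, 1126, 794.3 and 769.4 CPM after TAC. The cKO sham libraries lay above WT sham and overlapped WT TAC, and cKO TAC lay above every other library. The sum of log2 effects gave 1608 CPM in cKO TAC and the sum of CPM differences gave 761 CPM, against a measured mean of 904 ± 163 (SD, n = 4). The Nppb interaction was -0.83 ± 0.58 (adjusted p = 0.955), and its sign turned when effects were added in CPM.

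Acta1, the skeletal alpha-actin of the fetal heart, stood at 498.3, 97.6, 1084 and 89.8 CPM in WT sham and at 7627, 3458, 4504 and 2392 CPM in WT TAC. The cKO sham libraries held 1245, 2372, 2352 and 1302 CPM and the cKO TAC libraries 2454, 7080, 5414 and 5526 CPM. The cKO sham libraries lay above WT sham, and both TAC groups covered the same range. Its interaction was -1.85 ± 0.98 (adjusted p = 0.946). Actg2, a smooth muscle actin, had the smallest p of the list with -2.15 ± 0.76 (adjusted p = 0.946), at levels of at most 7.41 CPM. Myh7, the fetal beta-myosin heavy chain, rose in both genotypes, by 1.81 and 2.10, with an interaction of 0.30 ± 0.39 (adjusted p = 0.969). The adult myosin Myh6 had an interaction of -0.32 ± 0.19 and the calcium pump gene Atp2a2 of -0.18 ± 0.18 (adjusted p = 0.946 and 0.96). Nppa, which encodes atrial natriuretic peptide, had an interaction of 1.38 ± 1.48 (adjusted p = 0.961). Its WT sham libraries held 14.1, 49.1, 1221 and 54.8 CPM, the high value being the library rich in atrial transcripts, and without that library the estimate was -1.71.

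Lysosomal genes, the best known targets of TFEB, had interactions close to 0 in the median. TAC raised 7 and lowered 4 of 57 lysosomal hydrolases and membrane proteins in WT, and raised 13 and lowered 5 in cKO. Over all genes TAC raised 9.7% and lowered 6.14% in WT, and raised 14.2% and lowered 12.4% in cKO, so the WT counts were near the background. The median interaction was 0.05 with 40 positive, and for 54 of 57 the 95% interval lay inside 2-fold. Sgsh, the heparan sulfate sulfatase whose promoter window is shown above, stood at 12.7, 9.18, 10.3 and 8.82 CPM in WT sham and at 8.97, 7.87, 9.59 and 13.2 CPM in WT TAC. In cKO it stood at 8.74, 9.06, 8.49 and 7.61 CPM after sham surgery and at 11.9, 10.7, 11.7 and 13.4 CPM after TAC. The WT groups overlapped, the cKO groups did not, and the interaction was 0.53 ± 0.22 (adjusted p = 0.946). For the vacuolar ATPase and Ragulator list, which acidifies lysosomes and docks mTORC1, the median interaction was -0.05 over 30 genes. Its member Atp6v1d gave -0.29 ± 0.12 (adjusted p = 0.946). Autophagy and mitophagy genes had a median of -0.03, with all 52 intervals inside 2-fold, and TAC lowered 3 of them in WT and 13 in cKO, against the 6.14% and 12.4% of all genes.

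Cell cycle and interferon genes rose in both genotypes with close medians. TAC raised 32 of 35 cell cycle genes in WT and 34 in cKO, against 9.7% and 14.2% of all genes, with medians of 2.32 and 2.34, a median interaction of -0.02 and a range from -0.98 to 0.65. Mcm6, a subunit of the replicative helicase, rose by 1.04 in WT and 0.79 in cKO, with a 95% interval of its interaction of -0.57 to 0.07. Of 40 interferon response genes 25 rose in WT and 29 in cKO, against the same shares, with a median interaction of -0.03. Ifit1, an antiviral RNA-binding protein, rose by 1.43 and 1.01 and had an interaction of -0.42 ± 0.19 (adjusted p = 0.946). Macrophage and monocyte markers rose in 11 of 24 cases in WT and 12 in cKO, against the same shares. Their sums were 430 to 639 CPM in WT sham, 534 to 928 in cKO sham, 642 to 912 in WT TAC and 852 to 1195 in cKO TAC, so that the highest cKO sham library, replicate 2, lay within the range of cKO TAC. Their median interaction of -0.16 was 0.05 without cKO sham replicate 2.

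Cytosolic and small heat shock proteins protect other proteins from unfolding. TAC raised 3 members in WT and 1 in cKO, against 9.7% and 14.2% of all genes. It lowered 1 in WT and 4 in cKO, against 6.14% and 12.4%. The interactions were negative in 22 of 24 cases, against 7520 of 15206 genes, with a median of -0.26. An unadjusted p under 0.05 was seen in 4 members (16.7%, against 4.7% of all genes). Hspb6, the small heat shock protein Hsp20, stood at 990.5, 789.4, 983.6 and 795.1 CPM in WT sham and at 1850, 1616, 1519 and 1175 CPM in WT TAC. Among cKO libraries it held 1007, 1143, 1288 and 981.2 CPM after sham surgery and 856.0, 1358, 1364 and 1192 CPM after TAC. The WT groups lay apart and the cKO groups overlapped, with an interaction of -0.68 ± 0.22 (adjusted p = 0.946). The mitochondrial chaperone Hspd1 fell in both genotypes (-0.32 and -0.59).

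The size of the TAC response was then described over the genes called for the TAC effect averaged over both genotypes, an average that does not use the interaction in this balanced design. Of 15206 genes, 3072 rose (20.2%) and 2831 fell (18.6%). Among the genes that rose, 1836 (59.8%) had a larger estimate in cKO, with median responses of 0.53 in WT and 0.61 in cKO. Among those that fell, 1989 (70.3%) had a larger estimate in cKO, with medians of -0.37 and -0.47. At an unadjusted p under 0.05 for the interaction there were 159 (5.18%) and 169 (5.97%), near the 4.7% of all genes. Across the 5903 genes the responses of both genotypes, which share no library, had a Pearson r of 0.900 and a major-axis slope of 1.12 of cKO on WT. Choosing genes on the averaged effect itself raises r. Over all 15206 tested genes r was 0.782 and the slope 1.12. Genes are not independent replicates, so no p is given. The picture depended on how genes were chosen, because 45.4% of the genes called in WT and 81.6% of those called in cKO had the larger estimate in cKO. Without the 2 WT libraries richest in atrial transcripts the shares were 49.9% for genes that rose and 57.7% for genes that fell. That fit is unbalanced, so choosing genes on the average then favours larger WT responses, and the shares are not directly comparable.

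A TAC score per library, the mean log2 CPM of the genes that rose minus that of the genes that fell, relative to the WT sham mean, was -0.15 to 0.19 in WT sham, 0.06 to 0.63 in cKO sham, 0.96 to 1.48 in WT TAC and 1.215 to 1.86 in cKO TAC. Both TAC groups overlapped, and so did both sham groups. The first principal component (42.7% of variance) gave the groups the same order of means.

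Whether both effects add up was described over the 930 genes called for both the averaged TAC effect and the averaged genotype effect, the latter passing in 9.06% of all genes (4.21% higher and 4.85% lower). The averaged genotype count of 1377 fell to between 819 and 904 without WT TAC replicate 2 or 3, cKO sham replicate 2 or 4, or cKO TAC replicate 1 or 2. In 861 of them both effects had the same direction, 347 higher and 514 lower, and in 69 they were opposite. Among the 861, 313 (36.4%, exact 95% binomial interval 33.1 to 39.7) had a cKO TAC level short of the sum of log2 effects. This held for 187 of the 347 genes higher with both effects (53.9%) and for 126 of the 514 lower with both (24.5%). The pooled share was 21.7% without cKO TAC replicate 3 and 47.3% without WT sham replicate 3, with the design unbalanced in both fits. Genes in a tissue are correlated, so this interval covers counting error only. For genes higher with both effects the median interaction was -0.03, and for genes lower with both it was -0.17. In 859 of the 930 (92.4%) the estimated cKO TAC level lay within 1.5-fold of the sum. That range is about as wide as the effects being added, so this share cannot show that they add. The median genotype and TAC effects were 0.53 and 0.66 for genes higher with both, and -0.40 and -0.50 for genes lower with both. An unadjusted p under 0.05 was seen in 45 of the 514 genes lower with both effects (8.75%), against 4.7% of all genes, and in 16 of the 347 higher with both (4.61%).

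List medians moved with single libraries. Leaving out each library in turn, the median interaction ranged from -0.39 to -0.20 for complex I, from -0.38 to -0.20 for complexes II to V and from -0.36 to -0.20 for fatty acid genes. It ranged from -0.38 (without cKO TAC replicate 3) to -0.11 (without WT TAC replicate 3) for mitochondrially encoded subunits and from 0.18 (without cKO TAC replicate 1) to 0.48 (without cKO sham replicate 2) for collagens. Without the same libraries it ranged from 0.12 to 0.50 for matricellular genes and from 0.21 to 0.67 for activated fibroblast markers. For hypertrophy genes it was -0.08 without WT TAC replicate 1 and -0.43 without WT sham replicate 3, and for crosslinking genes -0.00 without WT sham replicate 3. Scaling by library totals in place of TMM moved the median TAC response of all genes in WT from -0.01 to 0.11 and the median interaction of all genes to 0.07, and the metabolic and matrix medians kept their sign. Under that scaling the medians of the V-ATPase, autophagy, ribosomal protein, antioxidant, cell cycle, interferon, inflammation, p53, lymphocyte and resident fibroblast lists changed sign.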

How the data were processed

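RNA from 16 left ventricles was sequenced as paired-end reads. The deposited table holds raw counts per gene made by the authors. The submitters' processing notes name featureCounts 2.0.6, SAMtools 1.21, HISAT2 2.0.5, fastp 0.22.0 and the build GRCm39. Whether counting used strand is not given in the sources used here, so overlapping and antisense genes cannot be told apart. Symbols matched 51880 of 57186 identifiers.

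From these counts, 15206 genes passed filterByExpr. edgeR 4.0.16 (R 4.3.3) fitted 1 mean per group to all 16 libraries with TMM scaling and robust quasi-likelihood dispersions, leaving 12 residual degrees of freedom. Each contrast was adjusted by the Benjamini-Hochberg method over all tested genes, with a threshold of 0.05. SEs come from the F statistic, intervals are at 95%, and CPM levels use TMM-scaled library sizes. Scripts were tested on simulated data.

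Named genes were 8 fixed genes, up to 10 of each sign past the threshold (0 passed), and the smallest-p member of each of 43 lists. Cnksr1 and other examples were chosen after their values were seen, and 2 genes that the rule or this choice would name are not reported here. Members and lists were chosen with earlier results of these data known. Alternatives were DESeq2 1.42.0, limma 3.58.1 voom, other scalings and filters, a linear scale, a replicate block, and left-out libraries. The edgeR p-values set each contrast against the spread between samples within groups, pooled over the 4 groups and moderated across genes.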

Additional observations from a re-analysis of the deposited data

Results flagged for a closer look

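In 200 pairs of a named gene and a group of 4 libraries, 12 (6.0%) held a library whose gap to the nearest of the others exceeded Dixon's 95% critical value. Chance gives about 1 in 20.

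Some libraries held more than 1 of these values. WT sham replicate 3 held 1221 CPM of Nppa, where the others held 14.1 to 54.8, and 37.3 CPM of the atrial and conduction connexin Gja5, where the others held 7.04 to 10.9. In cKO TAC replicate 3, which was the highest library of its group for the metabolic lists, mt-Cytb stood at 32230 CPM (others 23350 to 23680), Sdhd at 323.5 CPM (245.0 to 252.2) and Ndufc2 at 96.8 CPM (74.0 to 77.5). In cKO sham replicate 3, mt-Cytb stood at 40140 CPM (34500 to 34910) and the ribosomal protein gene Rps27 at 56.5 CPM (87.3 to 92.8).

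The other 5 lay in a library each. Ccl7, a monocyte chemokine, was highest in cKO sham replicate 2, at 3.95 CPM against 1.24 to 1.52. Atp2a2 was lowest in WT TAC replicate 1, at 8921 CPM against 11090 to 11380. Dkk3, of the atrial list, was highest in WT TAC replicate 4, at 139.3 CPM against 11.1 to 17.7. Phb2, a mitophagy receptor of the inner membrane, was highest in WT sham replicate 1, at 200.2 CPM against 163.7 to 166.6. Mcm6 was lowest in cKO TAC replicate 1, at 15.4 CPM against 17.3 to 17.7.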

How the results depend on the processing

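The count of genes past the threshold for the interaction was 0 under every alternative run except DESeq2's Wald test (3) and the fit without the 2 WT libraries richest in atrial transcripts (2). Leaving out each library in turn also gave 0 each time, with 552 to 1242 genes at an unadjusted p under 0.05 and smallest adjusted p-values from 0.103 to 1.00.

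Named estimates turned sign for Nppa, to -0.39 with limma voom, -1.53 without the 2 WT libraries, -1.60 with atrial transcripts as a covariate and -1.71 without WT sham replicate 3 (highest with 1 library left out, 1.78 without WT sham replicate 1), and for Nppb on the linear scale (0.30). The share of genes that fell with a larger response in cKO was 65.8% with library totals, 57.7% without the 2 WT libraries and 63.8% with the covariate, and ranged from 63.4% to 78.5% with 1 library left out. For genes that rose the same values were 70.8%, 49.9%, 56.8%, and 52.8% to 70.8%. The share short of the sum was 43.9% without the 2 WT libraries, 42.2% with the covariate, and 21.7% to 47.3% with 1 library left out. Leaving out libraries unbalances the design, so choosing genes on averaged effects can itself move all these shares. Tfeb after TAC ranged from -1.3281 to -1.0004 with 1 library left out. The cause of these shifts was not tested. DESeq2's Wald test called 546 genes for the knockout after sham surgery and 826 after TAC, against 178 and 271, and with the atrial covariate the count after TAC was 686.

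The libraries showed no clear pairing by replicate number, which this check cannot exclude. Among 24 same-numbered pairs of libraries the correlation of deviations from the group means was -0.16 to 0.23, with 4 over 0.1, against a median of -0.01 in other pairs, and 5 of 16 libraries correlated best with their own number. The replicate block gave 0 genes for the interaction, with 800 at an unadjusted p under 0.05.

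With 4 animals per group the median 95% half-width of an interaction was 0.47 (log2) before adjustment over genes. At the adjusted threshold larger estimates, such as -1.48 for Socs3, were not called.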

Other observations

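Several further lists had 0 members past the threshold for the interaction in edgeR's quasi-likelihood test. Erythrocyte markers had the highest median of the 43 lists, 0.85, with 6 of 7 members positive and 0 at an unadjusted p under 0.05, and it ranged from 0.21 (without WT sham replicate 1) to 1.20 (without WT TAC replicate 1) when each library was left out. Their summed level was 351 to 1276 CPM in WT sham, 176 to 498 in cKO sham, 199 to 521 in WT TAC and 198 to 491 in cKO TAC, so that all groups overlapped. Endothelial markers had a median of -0.07 over 20 genes, 13 of them negative. Robo4, an endothelial guidance receptor, rose with TAC in WT by 0.33 (adjusted p = 0.00609), gave 0.04 in cKO (adjusted p = 0.772) and had an interaction of -0.30 ± 0.11 (adjusted p = 0.946). Smooth muscle and pericyte markers had a median of -0.12 over 18 genes, 15 of them negative and 3 at an unadjusted p under 0.05 (16.7%, against 4.7% of all genes), with Steap4, a metalloreductase of pericytes, at -0.38 ± 0.14 (adjusted p = 0.946). Their summed level was 3411 to 4206 CPM in WT sham, 4198 to 5346 in WT TAC, 4391 to 4942 in cKO sham and 5355 to 7019 in cKO TAC. Of cardiac ion channels, 12 of 29 fell with TAC in WT and 14 in cKO, against 6.14% and 12.4% of all genes, with a median interaction of 0.01.

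Among protein quality control genes, ER chaperones had a median interaction of -0.09, negative in 23 of 26, with Herpud1, of ER-associated degradation, at -0.61 ± 0.30, and proteasome subunits had a median of -0.10, negative in 24 of 31, with Psma2 at -0.27 ± 0.12 (adjusted p = 0.946 each). Ckm, the muscle creatine kinase, fell with TAC in cKO by 0.78 (adjusted p = 0.000554), gave -0.26 in WT (adjusted p = 0.21) and had an interaction of -0.53 ± 0.19 (adjusted p = 0.946). Mgst3, a microsomal glutathione transferase, gave -0.55 ± 0.19 (adjusted p = 0.946). Fosl2, an AP-1 subunit, gave 1.08 ± 0.39 and Itpr1, a calcium release channel, 0.36 ± 0.16 (adjusted p = 0.946 each). Estimates for Ccl7 (-1.53 ± 0.58) and the T-cell receptor gene Trac (0.84 ± 0.54) rest on levels of at most 6.15 and 1.92 CPM. Alas2, of heme synthesis in red cells, gave 0.92 ± 0.66, and Scn7a, of the Schwann cell, neuron and adipocyte list, 0.41 ± 0.25.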
